A study of Homo sapiens with 6 samples.

Results

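PHF13, THAP3 and 8 genes beside them on the short arm of chromosome 1 (NPHP4, KCNAB2, ICMT, ACOT7, PLEKHG5, NOL9, ZBTB48 and KLHL21) were compared between untreated and etoposide-treated U2OS cells. They were chosen by name and position, with earlier results of these data known. The gene list of the adriamycin libraries used here stops before NPHP4. These 10 genes were taken from the 39 listed from that point up to and including THAP3. The etoposide libraries list 67140 genes, and 280 of them are listed in both control and both etoposide libraries. The 10 genes span 772776 bases, chr1:5862811-6635586 of GRCh38, by the GENCODE annotation.

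The study measured poly-A RNA of U2OS, a human osteosarcoma line labelled as wild type, by RNA-Seq. Control cells received no treatment. The treated cells received etoposide at 100 μM or adriamycin at 1.5 μg/ml, each during 4 h, and each of the 3 groups has 2 libraries. Both drugs are topoisomerase II poisons used in chemotherapy, and the study used etoposide as a comparison for the action of adriamycin on chromatin. The adriamycin values of the 10 genes were not analysed here. Nothing in the labels says that the 2 libraries of a group came from separate cultures, so p-values measure the spread between these libraries, which may be technical. The labels call the cells epithelial. In the etoposide libraries COL1A1 stood at 1323 and 1413 TPM (a count per exon length, scaled to the same sum in every library). VIM stood at 568 and 534 TPM. The 6 epithelial markers examined summed to 25.3 and 22.2 TPM, of which EPCAM held 19.3 and 17.2 TPM. KRT14 stood at 4.41 and 2.95 TPM, and KRT19 and ESRP1 had 1 count or less in each library. Of the 6 mesenchymal or bone markers RUNX2 stood at 1.98 and 2.08 TPM and COL1A2 was near 0, at 5 and 2 counts. Summed immune markers stood at 0.248 and 0.281 TPM and endothelial markers at 0.904 and 0.826 TPM.

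The etoposide libraries held 21450766 and 14244235 counts. Over the 280 shared genes the sums were 110318 and 79278 in control cells and 113448 and 75327 with etoposide, which was 0.529% of each etoposide library. These sums are not library depths. The 10 genes took 10.1% to 10.8% of them in each library. Counts were compared after TMM scaling over the shared genes, and a normalized count below is a count divided by the library's size factor, so that it can be compared between libraries for 1 gene but not between genes.

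The 10 genes do unlike work. PHF13 binds histone H3 methylated at lysine 4 through its PHD finger and takes part in chromatin compaction and the DNA damage response, and THAP3 is a zinc finger protein with a THAP domain that binds the coregulator HCFC1. ZBTB48 is a zinc finger protein that binds telomeres. NOL9 is a polynucleotide kinase that acts with the endonuclease LAS1L in the processing of the precursor of ribosomal RNA, and KLHL21 is a substrate adaptor of a CUL3 ubiquitin ligase that brings Aurora B to the spindle midzone. ICMT methylates the prenylated end of CAAX proteins such as RAS, and ACOT7 hydrolyses acyl-CoA to a free fatty acid and CoA. PLEKHG5 is a guanine nucleotide exchange factor, NPHP4 is a protein of the ciliary transition zone, and KCNAB2 is a cytoplasmic subunit of voltage-gated potassium channels.

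In etoposide-treated cells, NPHP4 and NOL9 were lower than in control cells and no other gene of the 10 passed an adjusted p of 0.01. NPHP4 fell to 0.61 of the control level and NOL9 to 0.707 by the fitted fold. These folds are relative to the tested genes, on which the scaling rests, so a shift common to all of them would not be seen. PHF13 had an estimate of −0.31 and THAP3 of −0.15 on the log2 scale, and ZBTB48, at 0.34, had the highest estimate. The median log2 fold change was −0.26 over the 10 genes and 0.029 over all 118 genes tested. All 10 passed edgeR's filter on low counts. In bulk RNA, fewer cells of a kind and less RNA per cell cannot be told apart.

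The study's own rule asks for an adjusted p under 0.01 together with a log2 fold change beyond 1 in size. By edgeR's quasi-likelihood test 0 of the 10 genes met it, beside 4.24% of the tested genes, and the count was also 0 with the DESeq2 Wald test. At an unadjusted p under 0.05 in edgeR, 7 of the 10 were lower, beside 27.1% of all tested genes, and 1 was higher, beside 20.3%. Fewer genes passed this threshold in the DESeq2 Wald test. Of the 25 tested genes after the end of the adriamycin libraries, which include the 10, 8 were lower and 0 higher, beside 11 and 4 in edgeR. At an adjusted p under 0.01 alone, 2 of the 10 were lower, beside 13.6% of all tested genes, and 0 were higher, beside 3.39%. At an adjusted p under 0.05, 4 of the 10 were lower, beside 21.2%. Both etoposide libraries lay below both control libraries for 7 of the 10 genes, beside 38.1% of all tested genes, and above them for 1, beside 33.9%. Because earlier results were known when the 10 were chosen, these counts are not those of a set picked blind. The 7 other tested genes of the stretch had a median log2 fold change of 0.28. At an edgeR unadjusted p under 0.05, 2 of them were lower and 2 higher.

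These directions depend on the scaling. Upper-quartile scaling moved the median estimate over the 118 genes by 0.34 and library size alone by 0.18. Under upper-quartile scaling 36 genes of the table were higher and 7 lower at an adjusted p under 0.01, under library size alone 15 were higher and 15 lower, and under TMM 4 were higher and 16 lower. Of the 10 genes, upper-quartile scaling placed 7 estimates above 0 and called ICMT and ZBTB48 higher and none lower. Relative to the median of all tested genes, NPHP4 stood at −0.74 under each of the 4 scalings tried. NOL9 stood at −0.53 and ZBTB48 at 0.31 under each of them. A change of scaling moves all estimates by nearly the same amount, so these differences from the median could hardly vary and test nothing.

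**Figure D1:**
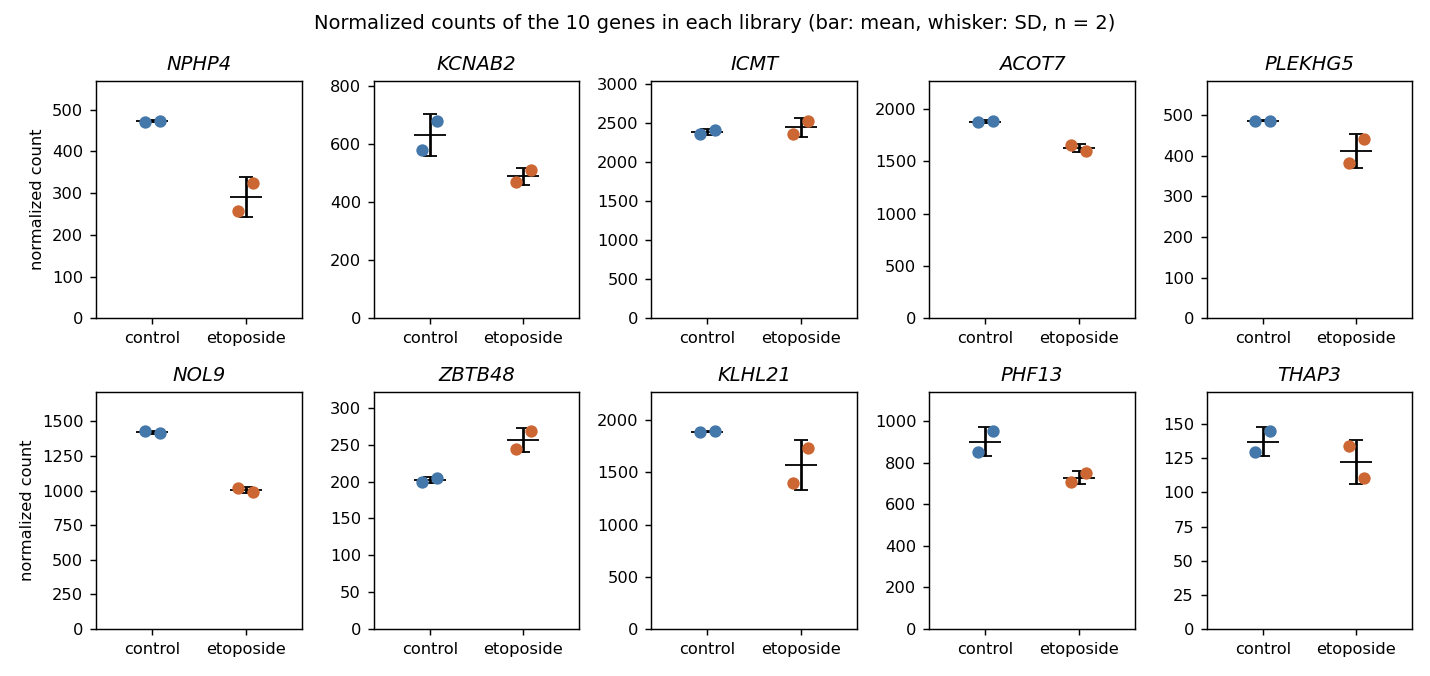
Normalized counts (vertical axes, each from 0) of the 10 genes in the control and etoposide libraries; points are libraries, bars the mean and whiskers the SD of 2 libraries. For 7 genes both etoposide points lie below both control points, for ZBTB48 both lie above, and for ICMT and THAP3 the groups overlap.

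PHF13 (ENSG00000116273) lies on the plus strand at chr1:6613731-6624030. Its counts were 946 and 768 in control cells and 938 and 629 with etoposide, or 852 and 951 normalized counts in control cells and 706 and 750.1 with etoposide. Both etoposide libraries were below both control libraries. The mean went from 901 ± 70.1 (SD, n = 2) to 728 ± 31.2 (SD, n = 2), a log2 fold change of −0.31 (SE 0.092, 95% interval −0.51 to −0.10) with an adjusted p of 0.0261 by edgeR with Benjamini-Hochberg adjustment, which misses the threshold of 0.01. Under upper-quartile scaling the estimate was 0.027, and without control replicate 2 it was −0.17. PHF13 held 8.29% and 9.01% of the counts of the 10 genes in control cells and 8.18% and 8.09% with etoposide, a share that no scaling can move. Its exons overlap no other annotated exon, although its body overlaps that of KLHL21 on the opposite strand by 877 bases.

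THAP3 (ENSG00000041988) follows on the same strand at chr1:6624868-6635586, 837 bases after the end of PHF13. It was the least counted of the 10, with 144 and 117 counts in control cells and 178 and 93 with etoposide. Its normalized counts were 130 and 145 in control cells and 134 and 111 with etoposide, so the groups overlapped. The log2 fold change was −0.15 (SE 0.19, 95% interval −0.57 to 0.28) with an edgeR adjusted p of 0.572, and it was 0.19 under upper-quartile scaling and 0.034 under library size alone. A fall to 0.674 and a rise to 1.21 of the control level both lie within the interval. DNAJC11, a mitochondrial J-domain protein on the opposite strand, shares 1419 exon bases with THAP3, which is 34.9% of the exon length of THAP3. DNAJC11 itself fell by 0.65 on the log2 scale (edgeR adjusted p = 0.000603). The use of strand in the counting is not given in the sources used here, and the part of the overlap in the values of THAP3 was not tested.

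PHF13 and THAP3 are neighbours on 1 strand with start sites 11137 bases apart. The ratio of PHF13 counts to THAP3 counts within a library was 6.57 and 6.56 in control cells and 5.27 and 6.76 with etoposide, so the etoposide libraries stood on both sides of the control libraries. Tested genes outside the 10 were compared by their pattern over the 4 libraries, as the root mean square difference of log2 CPM (counts scaled to library size). Each gene was centred on its own mean, so its level does not enter. Most like PHF13 in pattern were TNFRSF25 (0.028), C1orf159 (0.039) and CAMTA1 (0.055). Those most like THAP3 were PEX10 (0.055), C1QTNF12 (0.066) and WASH9P (0.088), from 108 candidates. These are the nearest of many genes over only 4 libraries, and whether genes picked at random lie as near was not tested.

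The stretches of 250 bases before the start sites of PHF13, THAP3 and NOL9 are shown because the first 2 belong to adjoining genes and the last lies before the gene with the smallest adjusted p of the 10. They are RefSeq sequence of GRCh38, 5′ to 3′ on the strand of the gene, at chr1:6613481-6613730 (plus), chr1:6624618-6624867 (plus) and chr1:6554514-6554763 (minus). Capitals mark the CCAAT box, searched as CCAAT on both strands.
PHF13: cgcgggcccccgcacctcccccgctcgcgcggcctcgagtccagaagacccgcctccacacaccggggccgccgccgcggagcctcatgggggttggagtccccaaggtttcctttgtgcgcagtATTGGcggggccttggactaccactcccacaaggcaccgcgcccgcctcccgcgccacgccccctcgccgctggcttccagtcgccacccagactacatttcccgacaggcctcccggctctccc
THAP3: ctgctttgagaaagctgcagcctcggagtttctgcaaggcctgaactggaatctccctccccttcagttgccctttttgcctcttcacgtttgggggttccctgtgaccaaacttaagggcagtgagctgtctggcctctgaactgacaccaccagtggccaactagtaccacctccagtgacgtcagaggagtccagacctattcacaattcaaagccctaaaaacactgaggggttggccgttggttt
NOL9: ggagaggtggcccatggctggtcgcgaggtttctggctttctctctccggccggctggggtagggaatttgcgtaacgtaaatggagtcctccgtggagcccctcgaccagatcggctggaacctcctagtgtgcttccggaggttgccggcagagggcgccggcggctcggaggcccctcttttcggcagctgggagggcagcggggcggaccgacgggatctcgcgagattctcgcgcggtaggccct

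The PHF13 stretch held 1 CCAAT box, on the reverse strand, and none lay before THAP3 or NOL9, beside 32.0% of all 35116 RefSeq start sites with a CCAAT match in the same length. The GC box GGGCGG was found once before NOL9 and not before PHF13 or THAP3, beside 42.6% of all start sites. ICMT and KLHL21 had 7 matches of it each, ACOT7 had 3 and ZBTB48 had 2. NPHP4 had 4 CCAAT boxes in its stretch, and ACOT7 and ZBTB48 had 1 each. Each gene was searched at 1 start site, that of its canonical transcript. PLEKHG5 has 5 RefSeq start sites, ACOT7 and KCNAB2 have 4 each and THAP3 has 2. For KLHL21 (chr1:6602869), PLEKHG5 (chr1:6491667) and KCNAB2 (chr1:6045888) the site used lies inside the annotated gene body. Several stretches, among them those of NPHP4 and ACOT7, overlap annotated exons. None of the 10 stretches held the E-box CACGTG, which 6.34% of all start sites did, or a p53 full site of half-sites up to 13 bases apart, which 0.0256% did. GC content was 72.4% before PHF13, 52.8% before THAP3 and 66.8% before NOL9. A match is a run of letters and no measured binding.

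ZBTB48 (ENSG00000204859), at chr1:6579994-6589280 on the plus strand, was the other DNA-binding zinc finger gene. It had 200 and 205 normalized counts in control cells and 245 and 268 with etoposide, from 222 and 166 counts and from 325 and 225 counts. Both etoposide libraries were above both control libraries. The mean went from 203 ± 4.01 to 256 ± 16.8 (SD, n = 2 each), a log2 fold change of 0.34 (SE 0.14, 95% interval 0.027 to 0.64) with an edgeR adjusted p of 0.0844, which misses the threshold. The estimate was above 0 under every alternative tried. Under upper-quartile scaling it was 0.67 with an edgeR adjusted p of 0.00222. ZBTB48 held 1.95% of the counts of the 10 genes in each control library and 2.83% and 2.89% with etoposide. The exact binomial 95% intervals of these shares, which cover counting error only, were 1.70% to 2.22% and 1.66% to 2.26% in control cells and 2.54% to 3.15% and 2.53% to 3.29% with etoposide.

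NOL9 (ENSG00000162408) lies on the minus strand at chr1:6521347-6554513. It had 1587 and 1141 counts in control cells and 1355 and 829 with etoposide, or 1428 and 1412 normalized counts in control cells and 1019.8 and 989 with etoposide. The 2 libraries of each group lay close together and the groups did not overlap. NOL9 fell by 0.50 on the log2 scale (SE 0.077, 95% interval −0.67 to −0.33), from 1420.5 ± 11.3 to 1004 ± 22.1 normalized counts (SD, n = 2 each), with an adjusted p of 0.000675 by edgeR with Benjamini-Hochberg adjustment. The DESeq2 Wald test also called it. The call was lost under upper-quartile scaling (−0.16, edgeR adjusted p = 0.112). It was also lost without etoposide replicate 1 (−0.49) and without etoposide replicate 2 (−0.42). Those fits leave 1 etoposide library, and the loss of a call in them is not particular to NOL9. NOL9 held 13.9% and 13.4% of the counts of the 10 genes in control cells and 11.8% and 10.7% with etoposide. There were 7.15 and 6.87 NOL9 counts for each ZBTB48 count in control cells and 4.17 and 3.68 with etoposide.

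KLHL21 (ENSG00000162413), at chr1:6590724-6614607 on the minus strand, had 1888 and 1894 normalized counts in control cells and 1401 and 1737 with etoposide. The control libraries lay much closer together than the etoposide libraries, and the groups did not overlap. The log2 fold change was −0.27 (SE 0.099, 95% interval −0.49 to −0.05) with an edgeR adjusted p of 0.0570. Under upper-quartile scaling it was 0.056, and without etoposide replicate 1 it was −0.09. The ratio of KLHL21 to PHF13, which start on opposite strands with overlapping bodies, was 2.22 and 1.99 in control cells and 1.98 and 2.32 with etoposide, so it overlapped between the groups.

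ICMT (ENSG00000116237), at chr1:6221193-6235972 on the minus strand, had 2358 and 2418 normalized counts in control cells and 2363 and 2534 with etoposide. The groups overlapped. The log2 fold change was 0.04 (SE 0.074, 95% interval −0.13 to 0.20) with an edgeR adjusted p of 0.716. Under upper-quartile scaling it was 0.37 (edgeR adjusted p = 0.00222). ICMT took 23.0% and 22.9% of the counts of the 10 genes in control cells and 27.4% and 27.3% with etoposide. RNF207 and the divergent lncRNA gene ICMT-DT on the opposite strand share 2.18% and 1.81% of its exon length.

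ACOT7 (ENSG00000097021), the next of the 10 along the chromosome at chr1:6264269-6393767 on the minus strand, had 1872 and 1890.3 normalized counts in control cells and 1656 and 1603 with etoposide. Both etoposide libraries were below both control libraries. The log2 fold change was −0.21 (SE 0.073, 95% interval −0.37 to −0.04) with an edgeR adjusted p of 0.0544, and 0.13 under upper-quartile scaling. There were 1.26 and 1.28 ICMT counts for each ACOT7 count in control cells and 1.43 and 1.58 with etoposide, so this ratio was higher in both etoposide libraries. A lncRNA gene on the opposite strand shares 6.09% of the exon length of ACOT7.

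NPHP4 (ENSG00000131697), at chr1:5862811-5992473 on the minus strand, had 524 and 383 counts in control cells and 342 and 273 with etoposide. Its normalized counts were 472 and 474 in control cells and 257 and 326 with etoposide. The groups did not overlap, and the etoposide libraries lay farther apart than for any other of the 10 genes, at 0.34 on the log2 scale. NPHP4 fell by 0.71 on the log2 scale (SE 0.13, 95% interval −0.998 to −0.43), from 473 ± 1.74 to 291 ± 48.2 normalized counts (SD, n = 2 each), with an adjusted p of 0.00147 by edgeR with Benjamini-Hochberg adjustment. The DESeq2 Wald test also called it. The call was lost under upper-quartile scaling (−0.38, edgeR adjusted p = 0.0177). It was also lost without etoposide replicate 1 (−0.51) and without etoposide replicate 2 (−0.82). Those fits leave 1 etoposide library, and the loss of a call in them is not particular to NPHP4. NPHP4 held 4.59% and 4.49% of the counts of the 10 genes in control cells and 2.98% and 3.51% with etoposide. The exact binomial 95% intervals were 4.22% to 4.99% and 4.06% to 4.95% in control cells and 2.68% to 3.31% and 3.11% to 3.95% with etoposide.

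KCNAB2 (ENSG00000069424) lies at chr1:5990927-6101193 on the plus strand. Its outermost annotated start is within the body of NPHP4, and 212 exon bases belong to both. The start of its canonical transcript, at chr1:6045888, is outside the body of NPHP4. KCNAB2 had 581 and 682 normalized counts in control cells and 470 and 510.4 with etoposide. The groups did not overlap, and the control libraries lay farther apart than for any other of the 10 genes, at 0.23 on the log2 scale. The log2 fold change was −0.36 (SE 0.11, 95% interval −0.61 to −0.12) with an edgeR adjusted p of 0.0261, which misses the threshold of 0.01. It was −0.03 under upper-quartile scaling and −0.19 without control replicate 2. The ratio of NPHP4 to KCNAB2 counts was 0.812 and 0.695 in control cells and 0.548 and 0.638 with etoposide.

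PLEKHG5 (ENSG00000171680), at chr1:6467122-6520074 on the minus strand, had 487 and 485 normalized counts in control cells and 382 and 442 with etoposide. Both etoposide libraries were below both control libraries. The log2 fold change was −0.25 (SE 0.11, 95% interval −0.49 to −0.01) with an edgeR adjusted p of 0.0980, 0.087 under upper-quartile scaling and −0.10 without etoposide replicate 1. It lies downstream of NOL9 on the same strand, with a gap of 1272 bases between the gene bodies. There were 0.341 and 0.344 PLEKHG5 counts for each NOL9 count in control cells and 0.374 and 0.448 with etoposide.

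Between the ends of the range, NPHP4 and ZBTB48, the ratio of counts within a library was 2.36 and 2.31 in control cells and 1.05 and 1.21 with etoposide, a difference of −1.05 on the log2 scale. This pair was chosen after its values were seen. No scaling between libraries enters the ratio.

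**Figure D2:**
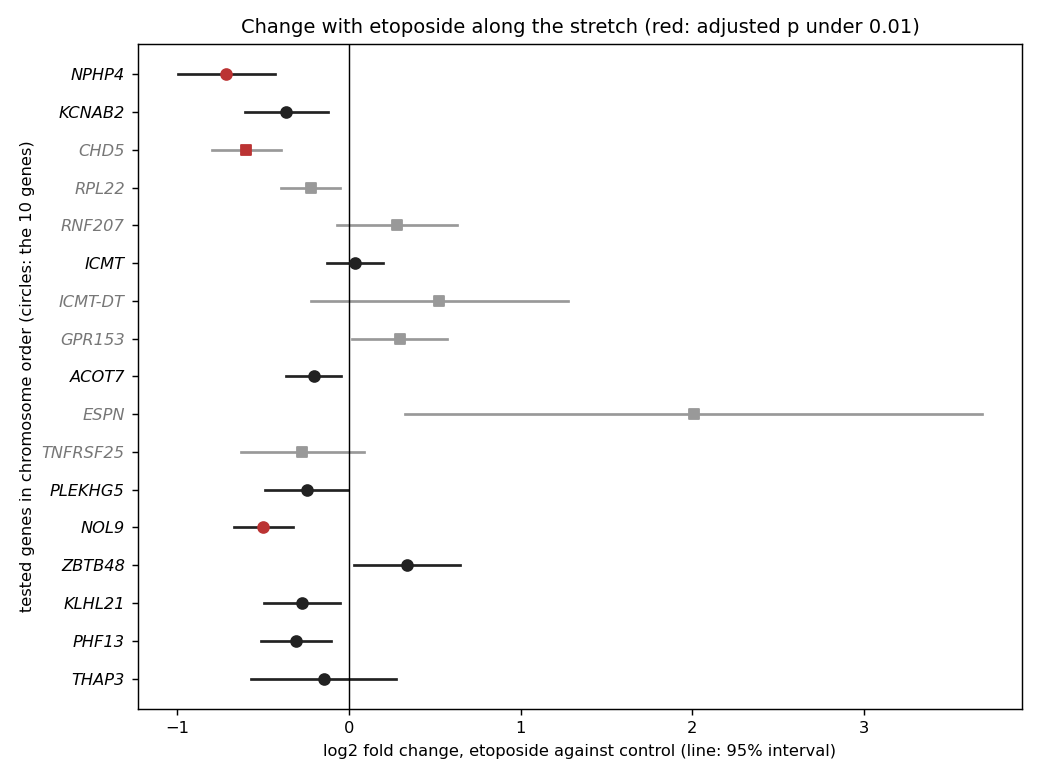
Log2 fold change (horizontal axis, etoposide against control, with 95% intervals) of the tested genes from NPHP4 to THAP3 in chromosome order; circles are the 10 genes and squares the 7 other tested genes, with red for an adjusted p under 0.01. NPHP4, NOL9 and CHD5 are red and all 3 lie below 0, and genes on either side of them have intervals nearer to or across 0.

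Of the 39 genes listed in the stretch, 17 were tested, the 10 and 7 others, and 22 were below the filter, 15 of them with no count. The 7 others had 4 estimates above 0 and 3 below. CHD5, a chromatin remodeller between KCNAB2 and ICMT, fell by 0.60 (edgeR adjusted p = 0.000675). Beyond THAP3, DNAJC11 and PER3, a gene of the circadian clock, fell by 0.65 and 0.78 (edgeR adjusted p = 0.000603 and 0.000102). Of the 25 tested genes listed after the end of the adriamycin libraries, 5 were lower and 0 higher at an adjusted p under 0.01 by both edgeR and the DESeq2 Wald test. Beside them, of all 118 tested genes 16 were lower and 4 higher by edgeR, and 17 lower and 4 higher by DESeq2. At an unadjusted p under 0.05, 11 of the 25 were lower and 4 higher in edgeR, beside 32 and 24 of the 118. In DESeq2, 8 of the 25 were lower and 0 higher, beside 26 and 15 of the 118. The 25 include the 10 genes. Fitted alone, with the scaling taken from these later genes, the 25 gave 5 lower and 4 higher at an edgeR adjusted p under 0.01. Of the 9 pairs of neighbours among the 10 genes in chromosome order, 4 had estimates of opposite sign and 5 of the same sign under TMM. Of the 4, 2 involve ICMT, whose interval spans 0.

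**Figure D3:**
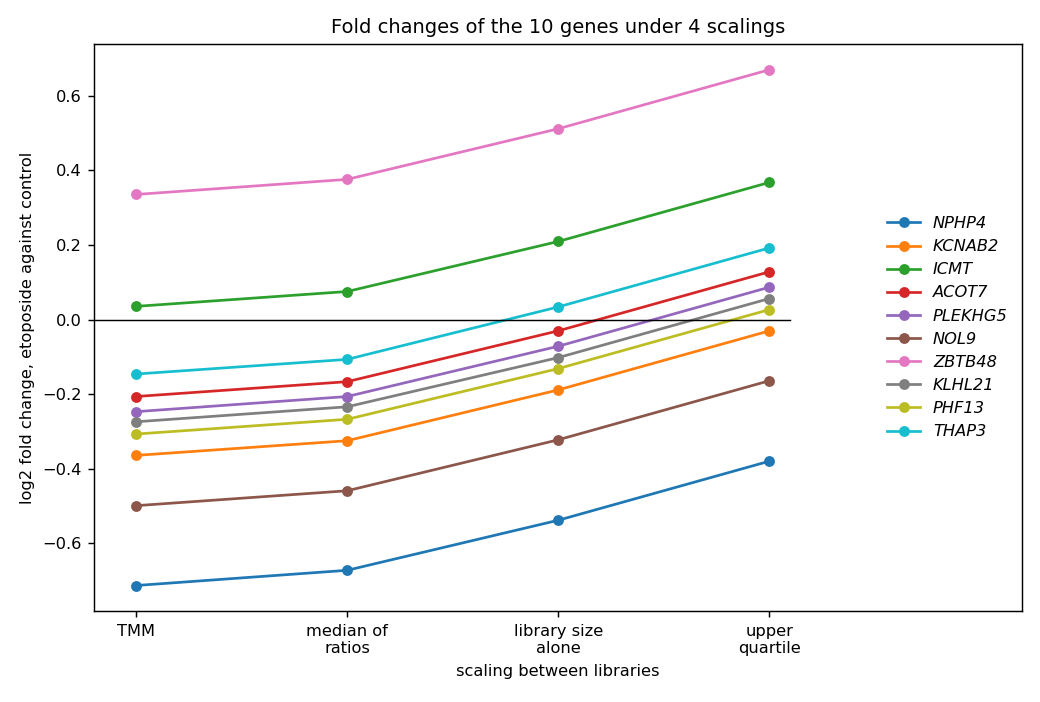
Log2 fold change (vertical axis, etoposide against control) of the 10 genes under 4 ways of scaling the libraries (horizontal axis). The lines run almost parallel from TMM to upper-quartile scaling, NPHP4, NOL9 and KCNAB2 staying below 0 and ZBTB48 and ICMT above it, while the other 5 cross 0.

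Levels of different genes were compared per exon length in the etoposide libraries, whose gene list is whole. ICMT stood at 103 and 107 TPM and ACOT7 at 101 and 94.7 TPM, KLHL21 at 44.8 and 53.9 TPM and PHF13 at 41.4 and 42.7 TPM, and NOL9 at 29.9 and 28.1 TPM. PLEKHG5 (11.7 and 13.2 TPM) and ZBTB48 (11.6 and 12.3 TPM) overlapped. THAP3 (7.02 and 5.64 TPM) and KCNAB2 (5.82 and 6.13 TPM) also overlapped, and NPHP4 was lowest at 4.17 and 5.11 TPM. The median of the 13715 coding genes with at least 10 counts in both libraries was 16.5 TPM, so 5 of the 10 genes were above it and 5 below. ICMT was at percentile 89.7 of these genes, PHF13 at 73.5, THAP3 at 29.3 and NPHP4 at 23.9. With the length of the longest transcript in place of all exons, ACOT7 came first, at 146 and 138 TPM, before ICMT at 78.9 and 82.5 TPM. By that length KCNAB2 (12.6 and 13.3 TPM) lay above THAP3 (10.4 and 8.44 TPM) without overlap, while PLEKHG5 and ZBTB48 still overlapped.

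Per kilobase of exon, the mean normalized count was 538 for ACOT7 and 486 for ICMT in control cells and 465 and 499 with etoposide, so the order of the first 2 differed between the groups. At the other end, THAP3 was lowest in control cells at 33.7 per kilobase, with NPHP4 at 35.9, and NPHP4 was lowest with etoposide at 22.1, with THAP3 at 30.1. These orders rest on means of 2 libraries and on 1 choice of length.

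**Figure D4:**
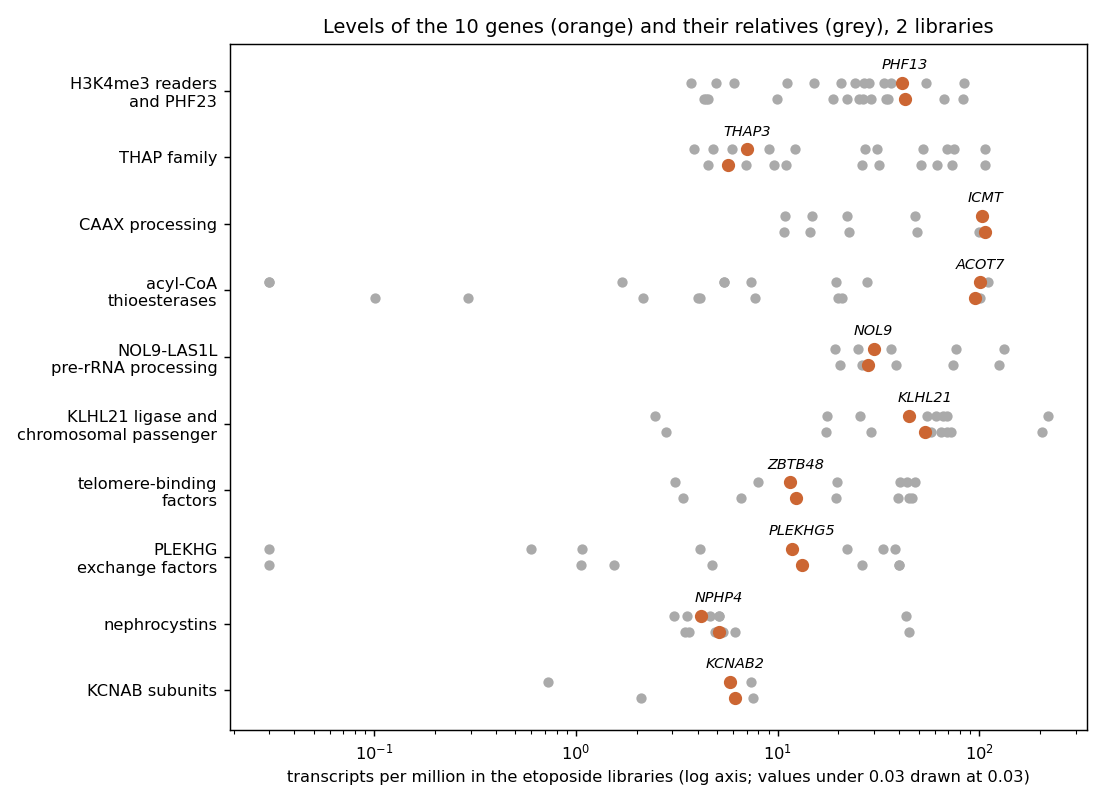
TPM (horizontal log axis) in the 2 etoposide libraries of the 10 genes (orange) and of the relatives listed with each (grey), 1 row for each list with 1 line of points for each library. With lengths of all exons, ICMT and ACOT7 lie at or near the top of their lists and THAP3 near the bottom of the THAP family.

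The relatives of the 10 genes were read in the etoposide libraries alone, since their control values were not analysed here, so these levels carry no test. Ranks are by mean TPM over all exons, and the rank with the longest transcript as the length is given beside each where it differs. Among 14 genes with a PHD finger that reads H3K4me3 or of the PHF13 kind, PHF13 ranked 3, or 5 by the longest transcript. PYGO2, a coactivator of Wnt signalling, was highest at 83.9 and 82.6 TPM, and KDM7A, a histone demethylase, lowest at 3.71 and 4.39 TPM. THAP3 ranked 10 of the 12 THAP genes, or 9 by the longest transcript. In that family THAP4 was highest at 107 TPM in each library and THAP2 lowest at 3.83 and 4.52 TPM. ZBTB48 ranked 5 of 7 telomere-binding factors, or 6 by the longest transcript, between the shelterin subunits ACD (47.8 and 46.4 TPM) and POT1 (3.11 and 3.39 TPM).

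NOL9 ranked 4 of the 6 genes of its processing complex, or 6 by the longest transcript, with WDR18 highest at 133 and 125 TPM and TEX10 lowest at 19.2 and 20.4 TPM. KLHL21 ranked 6 of 9 among ubiquitin ligase partners and the chromosomal passenger complex, with BIRC5 (survivin) highest at 220.02 and 205 TPM and KLHL13 lowest at 2.45 and 2.78 TPM. ICMT ranked 1 of the 6 genes of CAAX processing, or 2 by the longest transcript, and the prenyltransferase subunit PGGT1B was lowest at 10.9 and 10.7 TPM. ACOT7 ranked 2 of 10 acyl-CoA thioesterases, after ACOT2 at 110.1 and 100.1 TPM, but came first by the longest transcript, while ACOT12 had 0 and 0.101 TPM.

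PLEKHG5 ranked 4 of the 8 PLEKHG genes, from PLEKHG4 at 38.1 and 40.1 TPM to PLEKHG7, which had no count in either library. NPHP4 ranked 5 of the 7 nephrocystin genes compared, or 2 by the longest transcript, and IQCB1 was highest at 43.4 and 44.6 TPM. KCNAB2 lay between KCNAB3 (7.34 and 7.50 TPM) and KCNAB1 (0.729 and 2.097 TPM) over all exons, but by the longest transcript it was the highest of the 3, at 12.6 and 13.3 TPM. Its list is the smallest, with 3 genes.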

How the data were processed

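The authors sequenced poly-A RNA, aligned reads to GRCh38 with HISAT2 2.1.0, counted them per Ensembl gene with featureCounts (Subread 2.0.0) and deposited raw counts without normalization. Strand and multi-mapping options are not given in the sources used here. Groups and replicate numbers come from the labels. The control and adriamycin libraries were analysed over the first 220 to 292 genes of the list, without the incomplete last line of each.

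Counts of the 280 genes shared by the control and etoposide libraries were fitted with edgeR 4.0.16 (R 4.3.3; quasi-likelihood test, TMM, default filter, no replicate block), with Benjamini-Hochberg adjustment over the 118 genes tested and a biological coefficient of variation of 7.00%. On simulated data of this comparison (10 sets from the 280 genes, adjusted p under 0.01), 6% of genes changed by 0.5 on the log2 scale, 73.9% changed by 1 and 99.0% changed by 2 were recovered, and 0 of 1190 passed where nothing was changed. All genes were simulated with the same dispersion (spread between libraries). Changed genes were drawn from all with a mean of at least 10 counts, so recovery for the 10 genes themselves was not measured. TPM used the exon lengths of GENCODE release 44, which covers 60357 of the 67140 identifiers. Alternatives were DESeq2 1.42.0 (size factors and Wald test), other scalings and filters, a replicate block, and leaving out each library.

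The 10 genes, the lists of relatives and the markers were chosen with earlier results of these data known. Named besides the 10 are genes listed after the end of the adriamycin libraries past an adjusted p of 0.01 (at most 5 in each direction), the 3 tested genes most like PHF13 and like THAP3, and the highest and lowest gene of each list of relatives, except that 1 gene of the nephrocystin list is not reported here.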

Additional observations from a re-analysis of the deposited data

How the results depend on the processing

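NPHP4 and NOL9 were called under 10 of 13 alternatives each, and both lost the call under upper-quartile scaling and without either etoposide replicate. Without a replicate its group has 1 library, which is assumed to vary like the other group. In the edgeR fits 0 genes of the table passed an adjusted p of 0.01 without etoposide replicate 1 or without etoposide replicate 2, while 16 were higher and 24 lower, and 16 higher and 27 lower, at an unadjusted p under 0.05. Under upper-quartile scaling ACOT7 (0.13), PLEKHG5 (0.087), KLHL21 (0.056), PHF13 (0.027) and THAP3 (0.19) had estimates above 0, and ICMT (0.37) and ZBTB48 (0.67) were called higher, as ICMT was (0.23) when only genes after the end of the adriamycin libraries were fitted. THAP3 was also above 0 under library size alone (0.034) and with only those later genes (0.054), and ranged from −0.27 to 0.029 when 1 library was left out. NPHP4 ranged from −0.82 to −0.51 and NOL9 from −0.49 to −0.42 in the same way. The estimates that missed the threshold also moved with single libraries: KCNAB2 from −0.45 to −0.19, PHF13 from −0.36 to −0.17, KLHL21 from −0.38 to −0.09, PLEKHG5 from −0.29 to −0.10, ACOT7 from −0.20 to −0.13, ICMT from 0.04 to 0.12 and ZBTB48 from 0.33 to 0.44.

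Of genes past both thresholds, 2 were higher and 3 lower, from 118 tested. The fit of only the later genes tested 25 genes and the fit with no filter 210, so their counts are not of the same total. Higher were 5 under upper-quartile scaling, 0 with only the later genes, 4 at an adjusted p under 0.05 and 0 to 4 with 1 library left out, and lower were 0 with only the later genes and 0 to 3 with 1 library left out. At an adjusted p under 0.01 alone, 4 were higher and 16 lower. Higher were 36 under upper-quartile scaling, 15 under library size alone, 7 with no filter, 10 at an adjusted p under 0.05 and 0 to 11 with 1 library left out, and lower were 7 under upper-quartile scaling, 5 with only the later genes, 25 at an adjusted p under 0.05 and 0 to 16 with 1 library left out.

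The replicate numbers are only numbers in the labels, and deviations of same-numbered libraries correlated at −0.18. With the replicate number as a block, 2 genes were higher and 14 lower at an adjusted p under 0.01, and NPHP4 and NOL9 were called (edgeR adjusted p = 0.0075 each). With the numbers crossed (added once the data had been seen) the counts were 5 and 17. Replicates differed by more than counting error, with 24.0% of 104 genes in control and 32.7% in etoposide libraries past a binomial p of 0.05. The short gene lists limit the scaling, which rests on 0.529% of the counts, and the precision of THAP3, with 93 to 178 counts, and changes of 0.5 were seldom recovered in simulated data.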
